A study of Mus musculus with 24 samples.

Results

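A set of 6 miRNAs that are abundant in blood cells was followed across the tissues of the mouse eye and 2 brain regions. They were mmu-miR-451a and mmu-miR-144-3p, which mark red cells, and mmu-miR-223-3p, mmu-miR-142a-3p, mmu-miR-142a-5p and mmu-miR-150-5p, which mark white cells. They were picked by name from the 1881 miRNAs on the array, with no threshold on their signal but with earlier results of these data known. The study asked which miRNAs change in the eye when a minus lens makes it myopic. RNA came from male C57BL/6J mice. In the lens-induced group a −30 D lens was fixed over the right eye at 3 weeks of age and worn for 3 weeks, normal eyes (control in the labels) were the right eyes of mice without a lens, and the remaining group, named only in the labels, had a lens of 0 D. Each group was measured in the cornea, iris, lens, retina, RPE/choroid (named choroid in the labels), sclera, SCN and LGN, with 1 array for each tissue and lens group, or 24 arrays. For the ocular tissues equal amounts of RNA from 3 mice were mixed for each array, as the methods state for normal and −30 D eyes. For the 0 D eyes and the brain regions the mixing is not given in the sources used here. No perfusion of the mice before dissection is described in the sources used here.

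All 8 tissues of a lens group shared a slide (3 slides), and effects of the slide and of the lens cannot be told apart. A miRNA was called detected where a probe was above 3 times its error, and its signal was the sum over its detected probes, scaled so that the 79 miRNAs present on every array had the same 75th percentile. The arrays detected 129 to 249 miRNAs each. The 6 cornea and lens arrays detected 129 to 172 and were scaled up (log2 factors 0.69 to 1.65), while the other 18 detected 213 to 249 (log2 factors −1.01 to 0.36). Most but not all tissue markers followed the labels. The retinal miR-183-5p was highest in the retina (8510 to 9710), and the epithelial miR-203-3p was detected on the 3 cornea arrays alone. The epithelial miR-205-5p was highest in the cornea (895 to 1108) and was also detected on the 3 iris arrays (4.53 to 8.06). The neuronal miR-128-3p was highest in the SCN and LGN (516 to 1073), but the neuronal miR-124-3p was highest in the retina (10202 to 11409). The striated muscle miR-1a-3p, miR-133a-3p and miR-206-3p were all highest in the lens, miR-133a-3p at 267 to 315.

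Red cells carry no nucleus and keep a small set of miRNAs made while they matured, of which miR-451a is the best known. miR-451a and miR-144 are cut from one primary transcript under the control of the erythroid factor GATA1. The miR-451a hairpin is too short for Dicer and is sliced by AGO2, so that its mature strand runs around the loop. miR-223 is a miRNA of neutrophils and other myeloid cells, the miR-142 hairpin is expressed throughout the blood lineages, and miR-150 is a miRNA of mature lymphocytes. In the eye the choroid is a dense bed of leaky capillaries, the iris carries its own vessels, the vessels of the retina, like those of the brain, have a tight barrier, and the cornea and lens are avascular. In bulk RNA, fewer cells of a type and less RNA per cell cannot be told apart.

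The mature sequences of 5 of the 6 members stood in the RefSeq table of build GRCm38.p6; miR-150-5p was not in it. They are shown with the seed (bases 2 to 8), which directs target choice, in capitals, because these miRNAs are grouped here by cell of origin alone and each has a seed of its own.
mmu-miR-451a: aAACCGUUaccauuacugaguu
mmu-miR-144-3p: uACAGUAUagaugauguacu
mmu-miR-223-3p: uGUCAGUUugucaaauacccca
mmu-miR-142a-3p: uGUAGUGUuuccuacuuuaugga
mmu-miR-142a-5p: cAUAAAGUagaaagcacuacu
The 5 seeds all differed. The hairpin of miR-451a is printed with the mature strand in capitals, since detection of this strand is what most of the values rest on. The mature strand covers bases 17 to 38 of the 72.
Mir451a hairpin: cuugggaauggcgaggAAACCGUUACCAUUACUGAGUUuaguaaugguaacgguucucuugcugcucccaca
The mature miR-451a lies at chr11:78073186-78073207 and miR-144-3p at chr11:78073047-78073066, both on the plus strand with 119 bases between them. The arms of miR-142a lie at chr11:87756867-87756887 (5p) and chr11:87756903-87756925 (3p) on the plus strand with 15 bases between them. miR-223-3p lies at chrX:96242884-96242905 on the plus strand.

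miR-451a was detected on 20 of 24 arrays and miR-223-3p on 17. The other 4 members were below the limit on most or all arrays: miR-150-5p was detected on 4, miR-142a-3p on 3, and miR-144-3p and miR-142a-5p on none. Each member had 2 probes of 15 spots each. The probes of miR-144-3p lay between −1.37 and 1.04 errors on the 24 arrays. The probes of miR-142a-5p lay between −1.93 and 0.54 errors. Those of the other arm, miR-142a-3p, were above 0 on all 24 arrays, which held for 12.1% of the 4415 probes on the array. No level of one miRNA was set against that of another, since probes differ in how brightly they report.

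**Figure D1:**
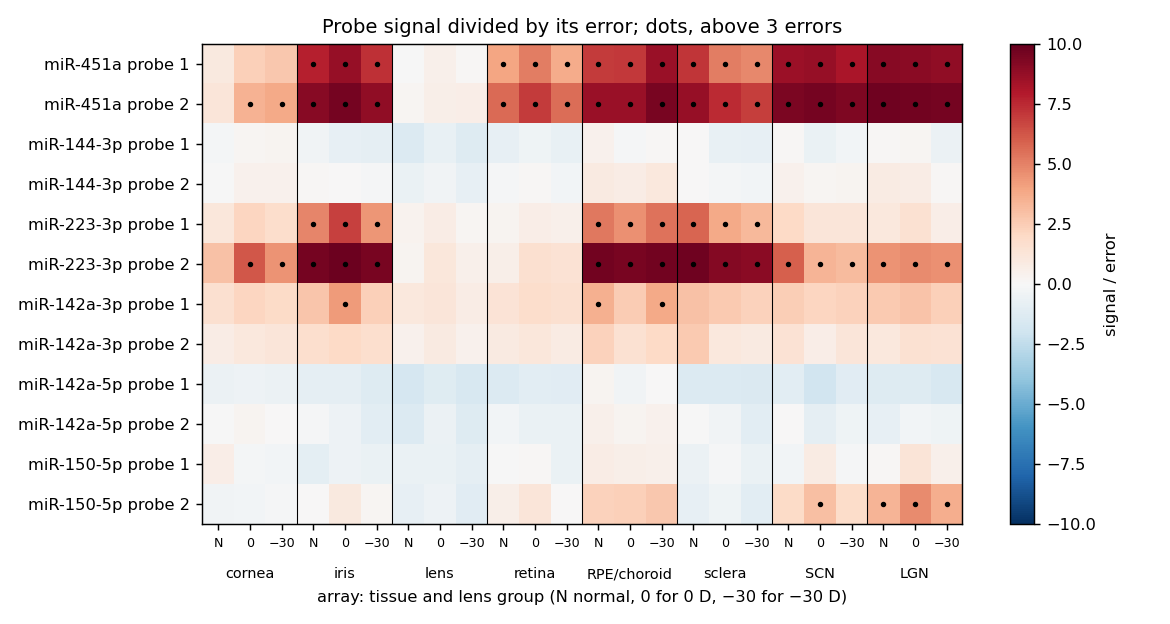
Signal of each member's 2 probes divided by its error (colour) on the 24 arrays, ordered by tissue and, within a tissue, as normal, 0 D and −30 D. Black dots mark probes above 3 errors; miR-451a and miR-223-3p carry most of them, and miR-144-3p and miR-142a-5p carry none.

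The red cell miRNA miR-451a was highest in the brain. Its scaled signal in the SCN was 75.6 (normal), 56.3 (0 D) and 57.6 (−30 D), and in the LGN it was 59.7, 60.4 and 65.3 in the same order. The SCN (63.2 ± 10.8, SD, n = 3 arrays, 1 for each lens group) and LGN (61.8 ± 3.05) overlapped. In the RPE/choroid miR-451a was 34.2, 41.8 and 59.4 on the normal, 0 D and −30 D arrays. In the iris it was 33.5, 37.0 and 32.3, and in the sclera 32.8, 32.4 and 25.4. The iris overlapped with the RPE/choroid and the sclera, which did not overlap with each other. All 3 lay below the SCN and LGN, except that the −30 D RPE/choroid array reached the brain arrays. In the retina miR-451a was only 11.6, 13.3 and 11.0. The cornea had 11.98 on the 0 D and 10.8 on the −30 D array and was not detected on the normal array. miR-451a was not detected on any lens array.

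The myeloid miRNA miR-223-3p had another order. It was highest in the RPE/choroid, with 53.1, 52.6 and 58.2 on the normal, 0 D and −30 D arrays. In the sclera it was 56.8, 51.4 and 42.0, and in the iris 37.0, 46.6 and 38.3, so that the sclera overlapped with both and the iris lay below the RPE/choroid. The cornea followed with 25.5 on the 0 D and 13.3 on the −30 D array and no detection on the normal array. The brain was low: the SCN had 12.5, 4.02 and 4.85 and the LGN 4.68, 5.38 and 6.24. Every brain array lay below every RPE/choroid, sclera and iris array. miR-223-3p was not detected on any retina or lens array.

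**Figure D2:**
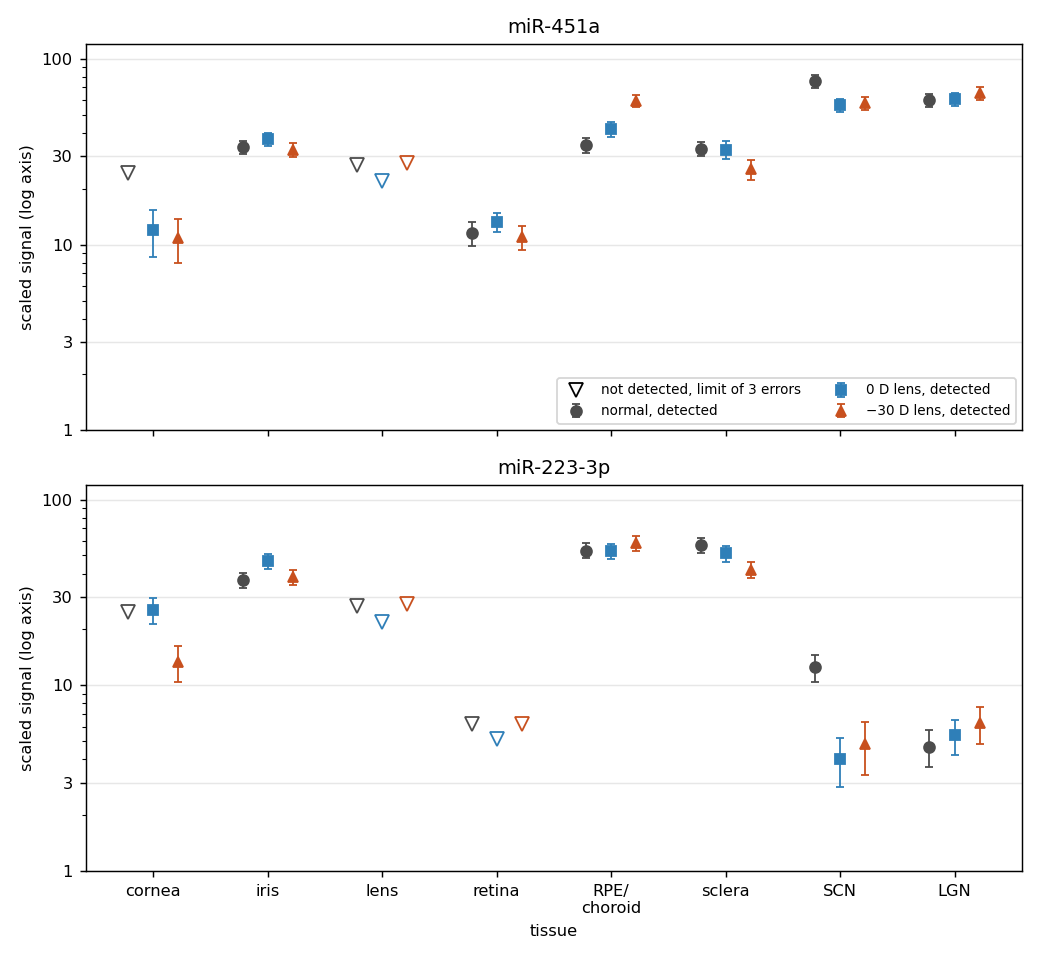
Scaled signal (log axis) of miR-451a and miR-223-3p by tissue and lens group; filled symbols are detected values with the array's own error, and open triangles are undetected values drawn at the limit of 3 errors summed over both probes. miR-451a peaks in the SCN and LGN, and miR-223-3p in the RPE/choroid, sclera and iris.

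Differences between tissues were tested with limma over the 306 miRNAs that could be fitted, with the lens group as a term. Undetected values, and detected values below it, were set to a common floor of 9.93. Of the members, miR-451a and miR-223-3p entered this fit, and the other 4 were never above the floor. Both differed between tissues (F test, adjusted p = 4.2e-11 for miR-451a and 1.8e-09 for miR-223-3p). So did 90.2% of all miRNAs tested, and the 2 calls among the members are read against that share. Between pairs of tissues miR-451a was called in 22 of 28 and miR-223-3p in 18 of 28, beside 53.9% of all tests over miRNAs and pairs. These p-values measure the spread between the arrays of a tissue, which came from different lens groups.

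The brain and the iris, RPE/choroid and sclera differed in opposite directions for the 2 miRNAs. miR-451a was lower in the RPE/choroid than in the SCN by a log2 difference of −0.51 (95% confidence interval −0.86 to −0.16, limma adjusted p = 0.014). miR-223-3p was higher there by 2.35 (1.89 to 2.81, limma adjusted p = 5.0e-08). In the sclera miR-451a was lower than in the SCN by a log2 difference of −1.06 (limma adjusted p = 2.6e-05) and miR-223-3p higher by 2.21 (limma adjusted p = 1.1e-07). For all 6 pairs of the iris, RPE/choroid or sclera with the SCN or LGN, both miRNAs passed the test and with opposite signs. Over all 28 pairs of tissues both passed in 16, with opposite signs in 7 and the same sign in the rest. As the floor lies above most brain values of miR-223-3p, the differences from the brain understate its fall. The values set to the floor also lose their spread, which the intervals leave out. With the cornea and lens arrays left out the floor was 4.35, and the RPE/choroid then exceeded the SCN by 3.09 and the LGN by 3.34 (limma adjusted p = 9.3e-07 and 4.4e-07).

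Neighbours in these orders often did not differ beyond their spread. SCN and LGN differed by 0.02 in miR-451a (interval −0.33 to 0.37) and iris and sclera by 0.19 (−0.16 to 0.54). The RPE/choroid exceeded the sclera in miR-451a by 0.55 (limma adjusted p = 0.0087) but not in miR-223-3p (0.14, interval −0.32 to 0.60, limma adjusted p = 0.80). The cornea did not differ from the retina or lens in miR-451a (−0.13 and 0.13 on the log2 scale, limma adjusted p = 0.67 and 0.66). The lens arrays and the normal cornea stood at the floor there. Their limits, 21.97 to 27.5, lay above the detected cornea values of 10.8 and 11.98. These differences thus depend on the floor and do not show equal levels. In miR-223-3p the cornea was higher than both by 0.60 (limma adjusted p = 0.028). All retina and lens arrays and the normal cornea stood at the floor in this comparison. The limits of miR-223-3p reached 27.5 in the lens, above both detected cornea values. The difference from the lens thus depends on the floor and does not show a higher level in the cornea.

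The ratio of miR-451a to miR-223-3p on the same array does not depend on the scaling. Its value has no meaning of its own, since the probes differ, but it can be compared between tissues. The log2 ratio was −0.24 ± 0.09 (SD, n = 3 arrays) in the iris, −0.31 ± 0.33 in RPE/choroid and −0.73 ± 0.06 in sclera. It was 3.33 ± 0.64 in the SCN and 3.52 ± 0.14 in the LGN. The 2 cornea arrays had −1.09 and −0.30. The lowest brain array (2.60, the normal SCN) lay above the highest of the 11 ocular arrays on which both were detected (0.03, the −30 D RPE/choroid), and the errors of single arrays were at most 0.50. On the 3 retina arrays miR-223-3p was not detected, and with its limit of 3 errors in its place the log2 ratio was at least 0.83 to 1.37. The retina thus lay above those 11 arrays, and whether it reached the brain arrays cannot be told from these limits.

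**Figure D3:**
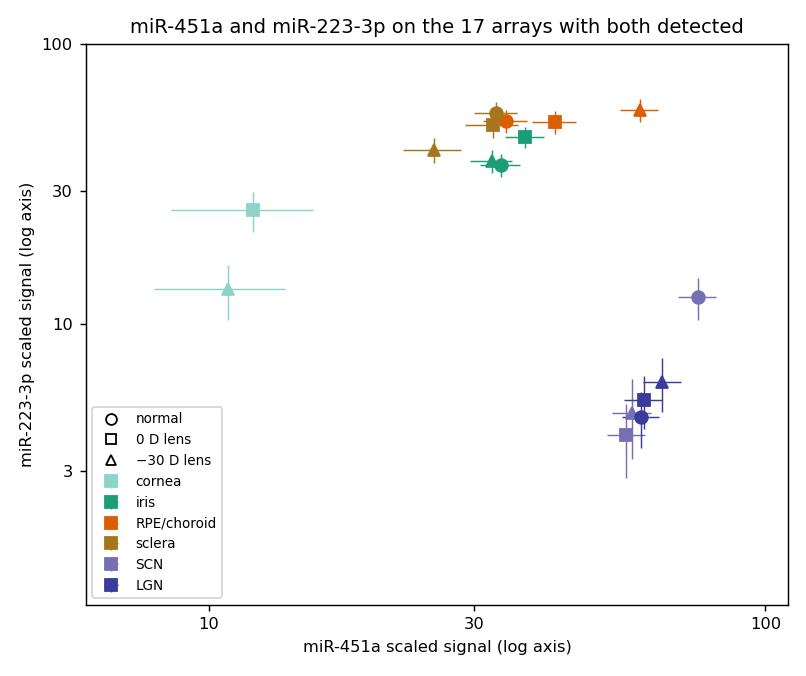
miR-451a (x axis) and miR-223-3p (y axis) as scaled signals on log axes for the 17 arrays on which both were detected, with the error of each array. Colours mark tissues and symbols the lens group; the SCN and LGN arrays lie at the lower right, apart from the iris, RPE/choroid and sclera arrays at the top.

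The avascular cornea and lens were set against the other 6 tissues. miR-451a was lower there by a log2 difference of −1.78 (95% confidence interval −1.98 to −1.58, limma adjusted p = 1.8e-11) and miR-223-3p by −0.85 (−1.12 to −0.59, limma adjusted p = 8.1e-06), beside 52.3% of all miRNAs called lower and a median over all miRNAs of −0.15. The floor stands for the undetected values, and for detected values below it, in these fits. The limits of 3 errors, summed over both probes, were higher on the lens arrays (21.97 to 27.5 for miR-451a), so bounds were computed against them. miR-451a was at least 2.47-fold higher in the SCN, 1.74-fold in the RPE/choroid, 1.35-fold in the iris and 1.18-fold in the sclera than in the lens, and no bound could be given for the retina. miR-223-3p was at least 2.15-fold higher in the RPE/choroid than in the lens and at least 9.38-fold higher than in the retina, where the limits were lower. This direction turned with 2 other settings. With the normexp background correction, which adds an offset of 50, the differences were 0.28 for miR-451a and 0.73 for miR-223-3p. They were 1.19 for miR-142a-3p and 1.13 for miR-150-5p, which were not detected on any cornea or lens array. With the gene total that the scanner files print the differences were 0.27 for miR-451a and 0.74 for miR-223-3p. The cause of this turn was not tested.

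The retina was low in both miRNAs. It did not differ from the cornea or lens in miR-451a (limma adjusted p = 0.67 and 0.22), and in miR-223-3p it lay with the lens at the floor. For miR-451a the lens arrays and the normal cornea stood at the floor. Their limits, 21.97 to 27.5, lay above the retina values of 10.97 to 13.3. These p-values thus do not place the retina at the level of the lens or the normal cornea. The retina detected 222 to 245 miRNAs per array and its limits for miR-223-3p, at 3 errors for each probe, were 5.13 to 6.22, so that a level as in the sclera or iris would have been seen. The log2 difference of the iris over the retina in miR-451a was 1.52 (limma adjusted p = 3.7e-07), and that of the retina over the SCN was −2.39 (limma adjusted p = 1.1e-09). The endothelial miR-126a-3p was detected on the 3 retina arrays at 67.5 to 75.1, between 164 and 198 in the SCN, and highest in the RPE/choroid at 1030 to 1203. It was not detected in the lens.

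The white cell members near the limit gave a partial picture. miR-142a-3p was detected through 1 of its probes on the normal (4.82) and −30 D (5.17) RPE/choroid arrays and the 0 D iris array (3.43), and its first probe was at 2.94 errors on the normal sclera array. miR-150-5p was detected on the 3 LGN arrays (normal 3.43, 0 D 5.40 and −30 D 4.74) and on the 0 D SCN array (3.51, at 3.005 errors). No bound could be given for the LGN over any ocular tissue. Only the second of its probes was ever above the limit.

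Other miRNAs tied to blood cells were taken as a comparison. Of 7 further miRNAs of red cells on the array, miR-486a-5p, an erythroid miRNA, was detected on the SCN (5.33 to 8.39) and LGN (3.74 to 4.12) arrays and nowhere else. These are the tissues with the highest miR-451a. Its limits on the other arrays, at 3 errors over both probes, were 4.36 to 27.4. Equal levels could thus have gone unseen there, and the pattern does not place it higher in the brain. miR-144-5p and miR-363-3p were not detected. miR-15a-5p, miR-25-3p and miR-92a-3p were detected on all 24 arrays and miR-16-5p on 22, miRNAs that many cell types express. They did not follow miR-451a: miR-92a-3p was highest in the lens (354 ± 29.5, SD, n = 3 arrays), where miR-451a was not detected. Of the 4 that entered the fit, 2 were called higher and 2 lower in the cornea and lens, beside 52.3% of all miRNAs called lower.

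Of 8 further miRNAs of white cells, 4 were never detected (miR-223-5p, miR-150-3p, miR-142b and miR-511-5p). miR-155-5p, miR-146a-5p and miR-511-3p, known from activated lymphocytes and macrophages, were detected in the iris, RPE/choroid and sclera alone. These are the tissues with the highest miR-223-3p. In the sclera they were detected on 1, 2 and 1 arrays in that order. Their limits on undetected arrays, at 3 errors over both probes, ran from 5.08 to 27.4. The upper limits lay above all their detected values, so equal levels could have gone unseen on such arrays. miR-146a-5p was 12.9 to 15.96 in the RPE/choroid and 5.98 to 6.58 in the iris. miR-342-3p was detected on all arrays and was highest in the SCN (756 ± 69.0). All 4 of the red cell list and both of the white cell list that entered the fit differed between tissues by the F test. So did 90.2% of all miRNAs tested, so these counts say nothing particular to the lists.

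The miRNAs whose log2 signal was most like that of miR-451a over the 24 arrays, among 195 detected on at least 12, were miR-125b-5p (Pearson r = 0.90), miR-100-5p (0.85), miR-652-3p (0.83), let-7c-5p (0.79) and miR-338-3p (0.78). miR-126a-3p had rank 6 with 0.76. The miRNAs most like miR-223-3p were miR-152-3p (0.94), miR-22-3p (0.91), miR-669n (0.87), miR-24-3p (0.87) and miR-199a-3p (0.85). For miR-223-3p, miR-126a-3p had rank 20 with 0.66. Between miR-451a and miR-223-3p themselves r was 0.28. The arrays share the scaling and the floor, and 3 arrays of a tissue are not independent points. miR-142a-3p was never above the floor and gave no such list.

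A lens group effect over the 8 tissues was not found for either member. Between the −30 D and normal arrays, brain included, miR-451a differed by 0.02 on the log2 scale (95% confidence interval −0.20 to 0.23, limma adjusted p = 0.98) and miR-223-3p by −0.02 (−0.30 to 0.26, limma adjusted p = 0.99). No miRNA was called in that comparison (0% of 306, with 24 at an unadjusted p under 0.05, none of them a member). Between the 0 D and normal arrays miR-451a differed by 0.06 (−0.15 to 0.27) and miR-223-3p by 0.15 (−0.13 to 0.43), where 0.654% of all miRNAs were called. Between the −30 D and 0 D arrays they differed by −0.04 (−0.26 to 0.17) and −0.17 (−0.45 to 0.11), where 0.327% were called. The 3 comparisons share arrays.

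Within a tissue there was 1 array for each lens group and thus no test. By the criteria of the study, a log2 ratio counts as a change beyond a fold of 2 (ratio 0.5) when both arrays detect the miRNA and of 5 (ratio 0.2) when 1 does. The methods give no value for an undetected miRNA, which was set to 0.1 here. Over the members, 49 ratios could be formed, of which 7 were higher and 5 lower by these criteria, and 10 of these 12 calls had an undetected value on 1 side. With an undetected value set to the dimmest detected signal on that array, 0 were higher and 2 lower.

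The cornea held 4 of the 7 higher calls. Both miR-451a and miR-223-3p were detected on the 0 D and −30 D cornea arrays and on neither probe of the normal cornea. By the same criteria 14.6% of the miRNAs were called higher on the 0 D array and 29.1% on the −30 D array. The miR-451a probes of the normal cornea were at 0.95 and 1.17 errors, against 3.50 errors for the brighter probe of the 0 D and 3.80 errors for that of the −30 D array. The brighter miR-223-3p probe of the normal cornea was at 2.90 errors, just under the limit, and its scaled signal of 12.3 was close to the 13.3 of the −30 D array.

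Summed over both probes whether or not they passed the limit, miR-451a was 8.66 in the normal, 19.7 in the 0 D and 18.2 in the −30 D cornea. miR-223-3p was 16.8, 32.5 and 18.1 in the same order. The limits of the normal cornea, at 3 errors over both probes, were 24.4 for miR-451a and 24.9 for miR-223-3p. Over these, miR-223-3p was at least 1.03-fold higher on the 0 D array, and no bound could be given for it on the −30 D array or for miR-451a on either. Beside these, the endothelial miR-126a-3p was detected on the −30 D cornea array (86.5) but on neither the normal nor the 0 D one. The summed markers of surface epithelium ranged from 957 to 1179 and those of retina from 214 to 244 over the 3 cornea arrays, and those of mesenchyme from 227 to 260. Those of striated muscle were 31.8, 60.4 and 46.9 on the normal, 0 D and −30 D cornea arrays. In the same order those of neurons were 20.2, 37.3 and 24.3 and those of pigment cells 685, 761 and 751. The part of these in the miR-451a and miR-223-3p signals was not tested.

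**Figure D4:**
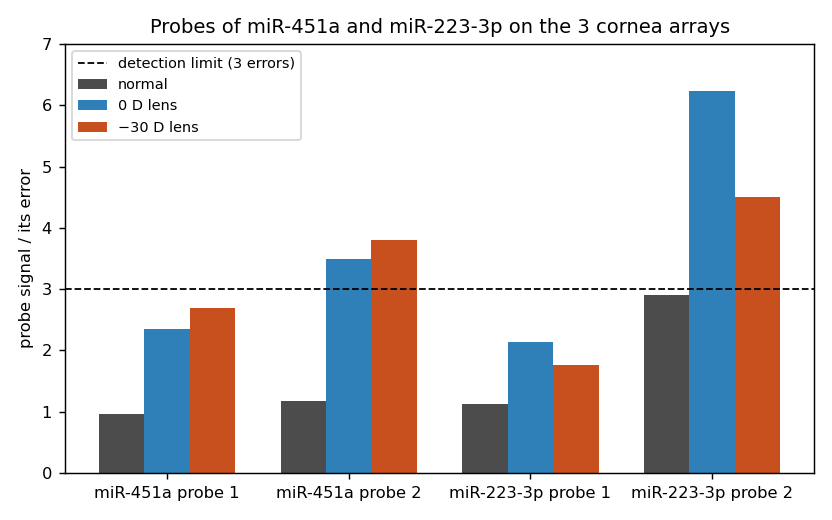
Signal of the 2 probes of miR-451a and of miR-223-3p divided by its error on the normal, 0 D and −30 D cornea arrays; the dashed line marks the limit of 3 errors. The second miR-223-3p probe of the normal cornea stands at 2.90, just below the line.

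In the SCN miR-223-3p was lower by these criteria on the 0 D and −30 D arrays, by a log2 ratio of −1.64 ± 0.49 (propagated error) for 0 D and −1.37 ± 0.52 for −30 D over normal. Of all miRNAs, 9.92% and 7.72% were lower. Before scaling the signals were 9.76, 5.79 and 4.91 on the normal, 0 D and −30 D arrays, and the unscaled log2 ratios of −0.75 and −0.99 did not pass. The normal SCN array also carried the mesenchymal miR-199a-3p (10.5), the retinal miR-183-5p (8.21) and the muscle miR-133a-3p (9.84), none of which was detected on the other 2 SCN arrays. The part of these in the difference was not tested. miR-451a on the same arrays had log2 ratios of −0.43 ± 0.16 and −0.39 ± 0.16.

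The other 6 calls came from miR-142a-3p and miR-150-5p passing the limit on 1 array and not the next. miR-142a-3p was higher on the 0 D iris array than on the normal one (8.3% of all miRNAs) and lower on the −30 D than on the 0 D one (11.2%). In the RPE/choroid it was lower on the 0 D array (6.44%) and higher on the −30 D than on the 0 D array (13.1%). miR-150-5p was higher on the 0 D SCN array than on the normal one (4.96%) and lower on the −30 D than on the 0 D one (5.02%). The undetected side lay at 1.83 to 2.76 errors in these cases, close to the limit.

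In the RPE/choroid miR-451a gave a log2 ratio of 0.80 ± 0.17 for −30 D and 0.29 ± 0.18 for 0 D over normal, both short of the criterion of a 2-fold change. The first is the only ratio of miR-451a outside the cornea beyond 0.51 in size. miR-223-3p on the same arrays gave 0.13 ± 0.19 and −0.01 ± 0.19. Over these arrays the summed retinal markers were 1436 (normal), 1007 (0 D) and 813 (−30 D), in the reverse order of miR-451a, and miR-126a-3p was 1198, 1030 and 1203. The summed neuronal markers, at 1011, 741 and 586, also ran in the reverse order. Those of striated muscle, at 39.3, 60.8 and 63.5, ran in the order of miR-451a. Their part in the miR-451a ratio was not tested. In the sclera both miRNAs were lower on the −30 D array by log2 ratios of −0.37 ± 0.22 and −0.44 ± 0.20. On the normal and −30 D sclera arrays the endothelial miR-126a-3p was 393 and 242. The summed markers were 1094 and 524 for retina, 596 and 327 for neurons and 74.0 and 121 for striated muscle in the same order, and their part in these ratios was not tested. In the LGN the −30 D ratios over normal were 0.13 ± 0.16 for miR-451a and 0.41 ± 0.45 for miR-223-3p.

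**Figure D5:**
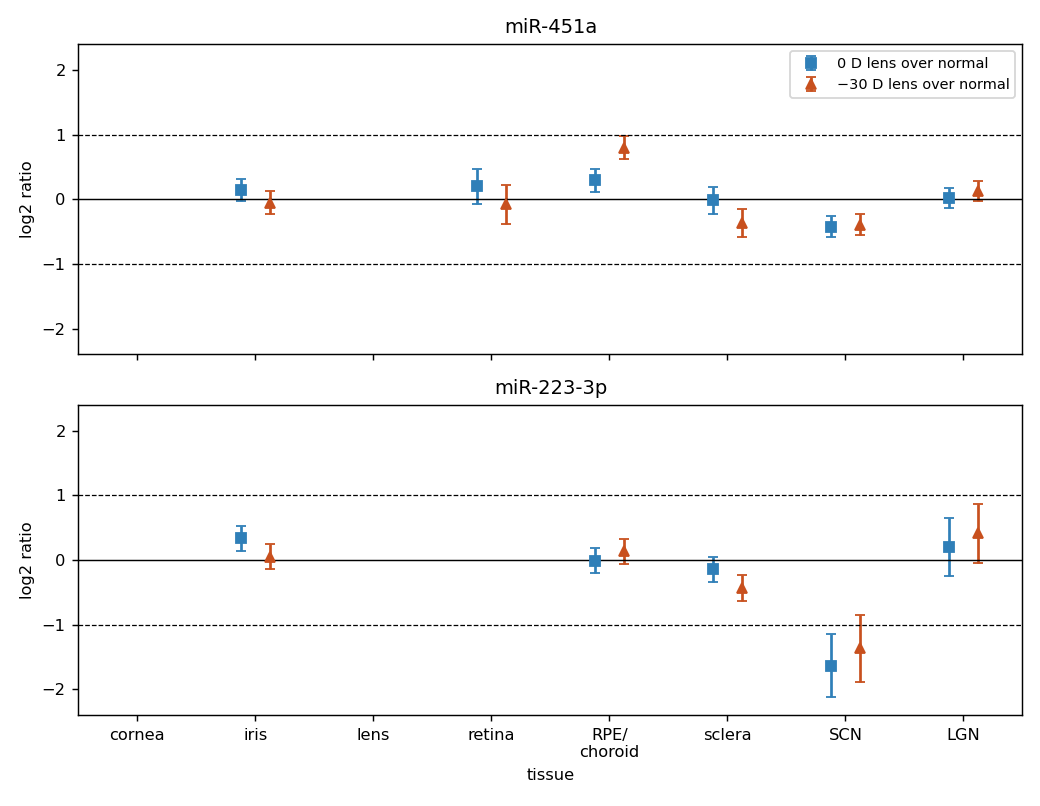
log2 ratio of miR-451a and miR-223-3p on the 0 D and −30 D arrays over the normal array of the same tissue, with the error propagated from the probe errors; tissues where 1 of the arrays lacked detection are left empty. Dashed lines mark a 2-fold change; only miR-223-3p in the SCN lies beyond them.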

How the data were processed

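The authors scanned 1-colour Agilent miRNA arrays (100 ng RNA each) with Feature Extraction 10.7.1.1, per the labels, and deposited scanner files of background-subtracted intensity for each probe with its error. A deposited normalized table was not used; its 24 value columns were not assigned to arrays. The intensity of a miRNA was summed over its probes above 3 errors and scaled to an equal 75th percentile over 79 miRNAs. For the fits, miRNAs detected on at least 3 arrays (352) were taken, with all signals below a common floor set to it. Constant ones were then dropped (306 left, 14 residual degrees of freedom). limma 3.58.1 in R 4.3.3 fitted tissue and lens group, with Benjamini-Hochberg adjustment over all miRNAs; the script was tested on simulated data. Bounds take 3 errors, summed over both probes, for the undetected side, a limit chosen after the values were seen. Members and lists were chosen with earlier results of these data known. The 6 members are named, with the lists and the 5 most alike miRNAs; miR-223-3p replaced miR-142a-3p there after its values were seen. Array number limits precision.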

Additional observations from a re-analysis of the deposited data

How the results depend on the processing

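miR-451a and miR-223-3p were called between tissues under all 13 alternatives, with adjusted p from 1.7e-12 to 0.011 and from 1.1e-13 to 0.041. With a floor at the median of the arrays' limits and with normexp, 4 members were called between tissues. Between the cornea and lens and the other tissues, normexp called 4 and the printed total 0. In pairs of tissues normexp gave 80 calls and the printed total 19, against 40. The main fit called 90.2% of all miRNAs between tissues and 53.9% of all tests over miRNAs and pairs. These shares are not given for the other settings, so the counts under them are not read as results about the members. The printed total differed from the probe sum on 2 arrays for miR-451a and 8 for miR-223-3p, by 3.96- to 38.1-fold. The sign of the cornea and lens difference turned with normexp (0.28 for miR-451a, 0.73 for miR-223-3p) and with the printed total (0.27, 0.74). Member calls within tissues were 12, and 2 with undetected values at the lowest detected signal. Lens group differences of the 2 miRNAs, none called, changed sign as follows. For miR-451a, −30 D minus normal was −0.049 with quantile normalization and −0.091 to 0.078 leaving out 1 tissue (below 0 without the RPE/choroid). 0 D minus normal was −0.024 with normexp and −0.053 with quantile normalization. −30 D minus 0 D was 0.079 with normexp, 0.0041 with quantile normalization and −0.12 to 0.0046 leaving out 1 tissue. For miR-223-3p, −30 D minus normal was 0.19 with the median floor, 0.38 with the printed total, 0.73 with undetected values at 0.1, 0.029 in the ocular tissues alone and −0.084 to 0.040 leaving out 1 tissue. 0 D minus normal was −0.11 with normexp, −0.19 without the cornea and lens arrays and −0.022 to 0.22 leaving out 1 tissue. −30 D minus 0 D was 0.064 with normexp. The cause of these changes was not tested. Leaving out the cornea and lens arrays and summing all probes were chosen after seeing the data. Scaling over all miRNAs was not run, as that percentile was at or below 0 on 1 array, and no member was among the miRNAs detected on all arrays. The lens group fits were paired by tissue, which stood as a term.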
